A study of Cucumis melo with 24 samples.

Results

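The genes described here belong to organic acid metabolism in melon fruit flesh. They were chosen by words in the gene descriptions of the deposited table: malate, malic enzyme, citrate, aconit, fumarate, succinate dehydrogenase, phosphoenolpyruvate carboxylase and phosphoenolpyruvate carboxykinase. In all, 80 of the 29980 genes listed carried such a word. Of these, 59 reached 1 TPM (the usual abbreviation for a relative transcript abundance adjusted for transcript length) in at least 3 of the 24 libraries, and 21 did not. The 59 are the genes described below, out of 17658 genes that passed the same minimum. By their descriptions they were 9 malate dehydrogenases, 8 succinate dehydrogenase subunits or assembly factors, 7 malic enzymes, 4 isocitrate dehydrogenases, 4 ATP-citrate lyase subunits, 4 phosphoenolpyruvate carboxykinases, 3 phosphoenolpyruvate carboxylases with 2 of their kinases, 3 aconitases, 3 aluminum-activated malate transporters, 2 citrate synthases, 2 glyoxylate cycle enzymes and 1 fumarase. The remaining 7 are enzymes of leucine synthesis that match only through the word isopropylmalate, and isocitrate dehydrogenase was found through the letters citrate. Just inside the minimum lay succinate dehydrogenase subunit 4 (MELO3C027807.2), which reached 1.12 TPM in the lowest of its 3 highest libraries, and just outside lay an aconitate hydratase (MELO3C032251.2), which reached 0.54 TPM by the same measure. A further 2 of the 59, a phosphoenolpyruvate carboxykinase and a malate transporter, reached 1 TPM in libraries of 1 genotype only.

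RNA was sequenced from fruit flesh of melon (Cucumis melo) that carried the cmnac-nor mutation and of wild type (WT) melon. CmNAC-NOR encodes a transcription factor of the NAC family, whose namesake in tomato (NOR) controls fruit ripening. Fruits were taken 15, 25, 35 and 45 days after pollination (DAP), which with mutant and WT gives 8 groups of 3 libraries. The kind of mutation and the number of mutant lines or fruits pooled are not stated in the labels, and nothing says that replicate libraries were made from different fruits. P-values therefore reflect only how far these samples spread, and that spread may be technical. Read depth cannot be recovered from TPM and is unknown.

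In plant cells citrate synthase joins oxaloacetate to acetyl-CoA to start the tricarboxylic acid cycle, in which citrate is turned through isocitrate, 2-oxoglutarate, succinate, fumarate and malate back to oxaloacetate. Phosphoenolpyruvate carboxylase makes oxaloacetate in the cytosol, which malate dehydrogenase reduces to malate, while malic enzyme turns malate into pyruvate and phosphoenolpyruvate carboxykinase returns oxaloacetate to phosphoenolpyruvate. Fruit flesh stores malate and citrate in the vacuole, and sweet melons are known for low acidity.

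Within groups, pairs of libraries had correlations of 0.913 to 0.98 across the tested genes. The transcript of CmNAC-NOR (MELO3C016540.2) averaged 149, 543, 1152 and 1862 TPM in mutant flesh at the 4 ages, against 777, 1417, 1050 and 458 TPM in WT flesh. It was present in both genotypes, so its level is no check of the labels. Transcripts of a 28-gene list of phloem markers summed to 5934 to 9134, 3845 to 7147 and 7177 to 10600 TPM in mutant libraries at 25, 35 and 45 DAP, against 1844 to 2934, 181 to 371 and 98.3 to 151 TPM in WT libraries. At 15 DAP the sums overlapped, at 11539 to 26185 TPM in mutant libraries and 10121 to 19837 TPM in WT libraries. In these sums 25 of the 28 phloem genes passed the minimum level and 1 was listed at 0 in every library. A 47-gene seed list, 25 of whose genes were listed at 0 throughout, was higher in all mutant libraries at 25 DAP, with sums of 280 to 428 TPM against 44.4 to 71.1 TPM in WT libraries, and at 45 DAP, with 207 to 409 TPM against 109 to 158 TPM. Its sums overlapped at 15 DAP (229 to 501 TPM in mutant libraries and 188 to 286 TPM in WT libraries) and 35 DAP (125 to 204 and 97 to 167 TPM). A 22-gene rind or epidermis list, 1 of whose genes was listed at 0 throughout, was lower in all mutant libraries at 25 DAP (103 to 115 TPM, against 138 to 180 TPM in WT libraries) and higher in all of them at 45 DAP (78.3 to 89.4 TPM, against 67.2 to 69.8 TPM). Its sums overlapped at 15 DAP (104 to 126 TPM in mutant libraries and 110 to 117 TPM in WT libraries) and 35 DAP (82.6 to 94 and 50.8 to 155 TPM). The part of these tissues in the results below was not tested, and in bulk flesh fewer cells of a type and less RNA per cell cannot be told apart.

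Organic acid genes ranged widely in level. Averaged over all 24 libraries, 5 members reached 500 TPM, 20 reached 100 TPM and 49 reached 10 TPM, and the 6 highest held 50.4% of the summed level. The 59 members together summed to 6604, 7669, 7469 and 7399 TPM in mutant flesh at 15, 25, 35 and 45 DAP, against 7180, 9951, 8822 and 8574 TPM in WT flesh. At 15 DAP the sums overlapped, at 6456 to 6851 TPM in mutant libraries and 6328 to 7883 TPM in WT libraries. The sums lean on a few genes and describe no shared change. Isocitrate dehydrogenase summed to 570 and 690 TPM in mutant flesh at 25 and 35 DAP, against 2539 and 2748 TPM in WT flesh. Malate dehydrogenase went the other way, at 1473 and 915 TPM against 1064 and 714 TPM.

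At 15 DAP few members differed between genotypes, while from 25 DAP on more than 30 did so at each age. Some were higher and others lower, often within the same enzyme class. The share called rose after 15 DAP over all genes tested as well, so this rise is not particular to the members. Changes are differences of log2(TPM + 1), mutant minus WT, tested with limma across all 17658 genes and called where the adjusted p (Benjamini-Hochberg) was under 0.05. At 15 DAP 2 members were higher in the mutant and 6 lower, beside 10.3% of all genes higher and 7.99% lower. At 25 DAP 18 members were higher and 17 lower, beside 48.6% and 18.3% of all genes. At 35 DAP 19 were higher and 21 lower, beside 41.2% and 23.2%, and at 45 DAP 16 were higher and 22 lower, beside 38.5% and 22%. As shares of the 59, the higher members made up 3.39%, 30.5%, 32.2% and 27.1% at the 4 ages and the lower ones 10.2%, 28.8%, 35.6% and 37.3%. In either direction 13.6%, 59.3%, 67.8% and 64.4% of the members were called, beside 18.3%, 66.9%, 64.4% and 60.5% of all genes. Mutant and WT libraries did not overlap for 12, 40, 43 and 45 members at the 4 ages, beside 26.5%, 75.6%, 68.1% and 70.1% of all genes. All members called were among these, as were 88.5%, 98.2%, 95.3% and 97.6% of all genes called.

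The split between higher and lower calls depended on how the libraries were scaled. At 25 DAP scaling by the median of ratios gave 10 members higher and 31 lower, beside 35.2% and 30.5% of all genes, and quantile normalization gave 10 higher and 21 lower, beside 30.1% and 31.9%. At 35 DAP the same scalings gave 17 members higher and 27 lower (34.6% and 30.9% of all genes), and 15 higher and 28 lower (30.2% and 34%). At 45 DAP they gave 11 members higher and 25 lower (32.3% and 30% of all genes), and 12 higher and 24 lower (26.9% and 33.7%). The median change of the members at 25 DAP was 0.01 as deposited, -0.44 under median-of-ratios scaling and -0.21 under quantile normalization, and that of all genes was 0.44, 0.09 and -0.01. At 35 DAP the members' median was -0.07 as deposited and -0.32 under median-of-ratios scaling, with 0.27 and 0.07 for all genes. At 45 DAP it was 0.03 and -0.14 for the members, with 0.22 and 0.04 for all genes. Among the called members, the sign of the change flipped for 1 malic enzyme under median-of-ratios scaling (MELO3C022537.2) and for 2 under quantile normalization (MELO3C018058.2 and MELO3C024441.2), all at 25 DAP.

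**Figure D1:**
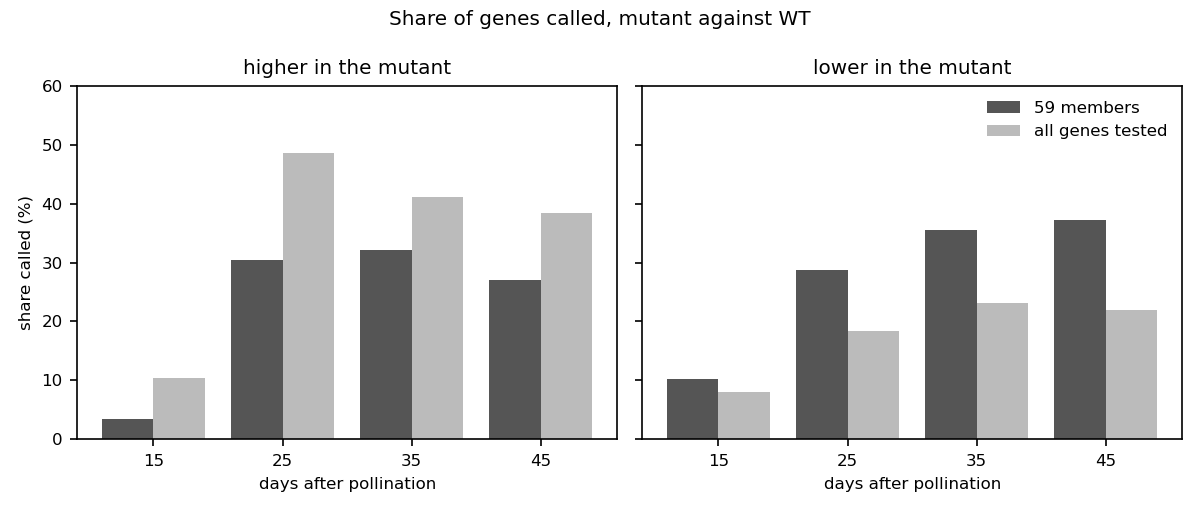
Share of genes called higher (left) and lower (right) in the mutant at each age in days after pollination, in percent, for the 59 organic acid members (dark bars) and all 17658 genes tested (light bars). At 25 DAP 30.5% of members and 48.6% of all genes were called higher, and 28.8% and 18.3% lower.

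Across the ages, 9 members were higher in the mutant at 25, 35 and 45 DAP and not called at 15 DAP, and 10 were lower at those 3 ages and not called at 15 DAP. These are 15.3% and 16.9% of the members, beside 18.9% and 6.64% of all genes with the same patterns. The 10 include malate transporter MELO3C014412.2, which passed the minimum level only through WT libraries. Patterns were counted on the values as deposited, and shares under the other scalings are not given. A further 2 were lower at all 4 ages (3.39% of the members, beside 2.57% of all genes), a citrate synthase (MELO3C019711.2) and an isopropylmalate synthase (MELO3C020296.2). In contrast, 4 members were called at no age (6.78%, beside 10.7% of all genes). In a fit to the 2 groups of an age alone, 6 of the 8 calls at 15 DAP were lost, as were 3 of 35 at 25 DAP, 1 of 40 at 35 DAP and 5 of 38 at 45 DAP. Over all genes that fit called 1.66% higher and 2.28% lower at 15 DAP, where the model of all libraries called 10.3% and 7.99%. At 25, 35 and 45 DAP it called 50.5%, 38.5% and 40.3% of all genes higher and 19.6%, 21.5% and 22.7% lower.

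**Figure D2:**
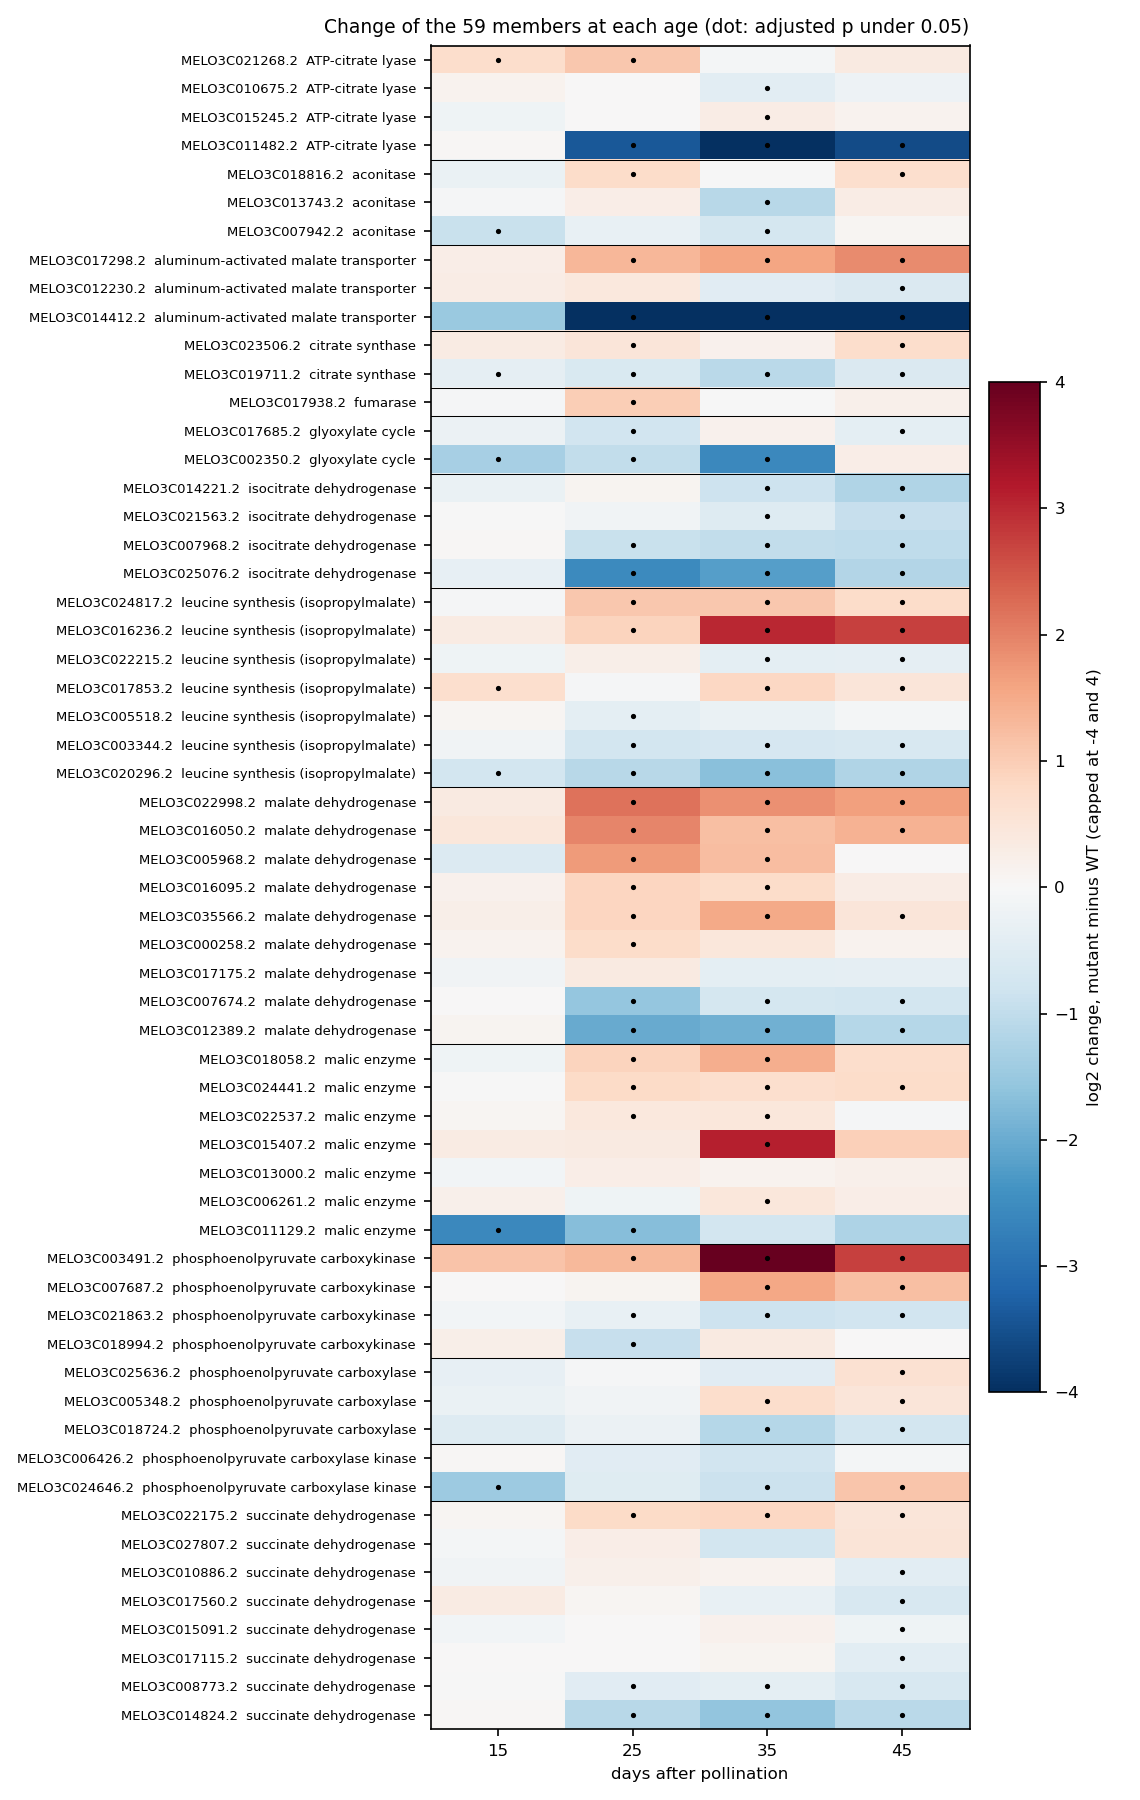
Change of each of the 59 members (rows, grouped by enzyme class) at each age in days after pollination (columns), as the log2 difference of TPM + 1, mutant minus WT. Red is higher and blue lower in the mutant, colours are capped at -4 and 4, and a dot marks an adjusted p under 0.05. Members of 1 class often differ in colour, as in the malate dehydrogenases, whereas the 4 isocitrate dehydrogenases are all blue at 35 and 45 DAP.

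Citrate is made by citrate synthase, and its 2 members here went different ways. The lower of them in level, MELO3C019711.2, read 106, 93.7 and 99.0 TPM in mutant libraries at 35 DAP, against 221, 209 and 204 TPM in WT libraries. All WT libraries were above all mutant libraries, and the gene was lower in the mutant by -1.08 (SE 0.09, limma adjusted p = 7.7e-09). It was also lower at 15 DAP (-0.36), 25 DAP (-0.62) and 45 DAP (-0.58, SE 0.09, adjusted p = 2.7e-05). The call at 15 DAP (adjusted p = 0.011) ended in the fit to the groups of that age (0.11; range across alternatives 0.00673 to 0.11) and without mutant replicate 2 or WT replicate 3. The other, MELO3C023506.2, averaged 275 ± 37.1 TPM in mutant flesh at 45 DAP, against 169 ± 10.6 TPM in WT flesh (SD, n = 3 each; change 0.69, SE 0.19, adjusted p = 0.00479). Its change of 0.47 at 25 DAP (adjusted p = 0.0408) was lost under both other scalings, where it was 0.02 and 0.31. At 15 and 35 DAP it did not pass the test.

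Aconitase, which turns citrate into isocitrate, had 3 members. The most abundant, MELO3C007942.2, read 201, 249 and 351 TPM in mutant libraries at 15 DAP, against 431, 594 and 444 TPM in WT libraries. The groups did not overlap, and the change was -0.89 (SE 0.17, adjusted p = 0.00119). In the fit to the 15 DAP groups alone it did not pass (adjusted p = 0.125; range across alternatives 8.93e-05 to 0.125). The same gene was lower at 35 DAP, at 428 ± 39.0 TPM in mutant flesh and 702 ± 146 TPM in WT flesh (change -0.70, adjusted p = 0.00141). A second, MELO3C018816.2, was higher in the mutant at 25 DAP, at 336, 395 and 417 TPM against 228, 237 and 222 TPM in WT libraries (change 0.73, SE 0.21, adjusted p = 0.00435), and at 45 DAP (0.67, adjusted p = 0.00905). Median-of-ratios scaling ended the call at 25 DAP, with a change of 0.28. The third, MELO3C013743.2, averaged 4.68 ± 0.24 TPM in mutant flesh at 35 DAP, against 11.6 ± 4.01 TPM in WT flesh (change -1.11, adjusted p = 0.000267), and was not called at the other ages.

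Isocitrate dehydrogenase, which makes 2-oxoglutarate with NAD or NADP, was lower in the mutant for all 4 members at 35 and 45 DAP, also under both other scalings, and for 2 of 4 at 25 DAP (4 under median-of-ratios scaling and 3 under quantile normalization). Among all genes tested 18.3%, 23.2% and 22% were lower at 25, 35 and 45 DAP. At 25 DAP this share was 30.5% under median-of-ratios scaling and 31.9% under quantile normalization. Most of the class total came from a gene described as NADP-dependent, MELO3C025076.2. At 15 DAP it read 308, 378 and 330 TPM in mutant libraries, against 437, 505 and 353 TPM in WT libraries. These groups overlapped, and the change of -0.34 did not pass the test (adjusted p = 0.131). At 25 DAP it read 361, 404 and 400.2 TPM in mutant libraries, against 2516, 1972 and 2420 TPM in WT libraries. Every WT library lay far above every mutant library, a change of -2.56 (SE 0.15, adjusted p = 6.11e-11). At 35 DAP the means were 533 ± 21.9 TPM in mutant flesh and 2461 ± 471 TPM in WT flesh (change -2.19, SE 0.15, adjusted p = 4.35e-10), and at 45 DAP 643 ± 30.9 and 1455 ± 163 TPM (change -1.17, SE 0.15, adjusted p = 2.04e-06). Its share of the summed isocitrate dehydrogenase level was 68.2% ± 2.76 in mutant flesh and 90.6% ± 1.4 in WT flesh at 25 DAP.

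The other isocitrate dehydrogenases changed by less. The NAD-dependent regulatory subunit MELO3C007968.2 averaged 67.7 ± 12.7, 70.5 ± 3.62 and 72.0 ± 3.72 TPM in mutant flesh at 25, 35 and 45 DAP, against 125 ± 4.38, 141 ± 2.36 and 148 ± 6.89 TPM in WT flesh, with changes of -0.89, -0.99 and -1.03. A further NAD-dependent subunit, MELO3C014221.2, was lower by -0.84 at 35 DAP and -1.19 at 45 DAP. The second NADP-dependent gene, MELO3C021563.2, was lower by -0.51 and -0.91 at these ages. None of the 3 was called at 15 DAP.

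ATP-citrate lyase, named ATP-citrate synthase in the table, splits citrate in the cytosol into acetyl-CoA and oxaloacetate and needs alpha and beta subunits. One of its beta chain genes, MELO3C011482.2, was at like levels in the 2 genotypes at 15 DAP, 17.0 ± 6.37 TPM in mutant flesh and 16.7 ± 7.56 TPM in WT flesh. At 25 DAP it read 13.02, 10.3 and 12.7 TPM in mutant libraries, against 148, 107 and 155 TPM in WT libraries. The groups lay far apart, with a change of -3.40 (SE 0.33, adjusted p = 4.52e-08). At 35 DAP it read 8.89, 7.49 and 6.62 TPM in mutant libraries, against 288, 144 and 337 TPM in WT libraries (change -4.81, SE 0.33, adjusted p = 3.89e-10), and at 45 DAP the change was -3.58 (adjusted p = 2.47e-08). The other beta chain gene, MELO3C021268.2, was higher in the mutant at 25 DAP, at 108, 126 and 105 TPM against 47.3, 57.6 and 52.3 TPM in WT libraries (change 1.09, SE 0.16, adjusted p = 9.59e-06). At 15 DAP it was also higher (0.70, adjusted p = 0.00585), a call that ended in the fit to that age alone (0.0747; range across alternatives 0.00325 to 0.0747). At 35 DAP it averaged 69.4 ± 5.97 TPM in mutant flesh and 73.8 ± 16.6 TPM in WT flesh, with overlapping libraries. The 2 alpha chain genes differed only at 35 DAP, with MELO3C010675.2 lower by -0.43 (adjusted p = 0.0218) and MELO3C015245.2 higher by 0.31 (adjusted p = 0.0339). Both of these calls ended when 1 library was left out, the alpha chain MELO3C010675.2 without mutant replicate 3 or WT replicate 3 and MELO3C015245.2 without any library but WT replicate 2. MELO3C011482.2 made up 4.27% ± 0.734 of the summed level of the class in mutant flesh at 25 DAP and 39.3% ± 6.35 in WT flesh.

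Succinate dehydrogenase oxidises succinate to fumarate in the inner mitochondrial membrane and is also part of the respiratory chain. Its iron-sulfur subunit, MELO3C014824.2, read 185, 193 and 197 TPM in mutant libraries at 25 DAP, against 436, 389 and 429 TPM in WT libraries. The change was -1.12 (SE 0.12, adjusted p = 2.08e-07) without overlap. At 35 DAP it read 178, 151 and 159 TPM in mutant libraries, against 506, 395 and 577 TPM in WT libraries (change -1.58, SE 0.12, adjusted p = 1.95e-09), and at 45 DAP the change was -1.07 (adjusted p = 4.01e-07). The flavoprotein subunit MELO3C017560.2, which holds the site where succinate is oxidised, was lower only at 45 DAP, at 59.2 ± 5.61 TPM in mutant flesh and 93.2 ± 3.31 TPM in WT flesh (change -0.65, adjusted p = 0.00121). Assembly factor 2 (MELO3C008773.2) was lower at 25, 35 and 45 DAP by -0.44, -0.40 and -0.65. Assembly factor 1 (MELO3C022175.2) was higher by 0.76, 0.82 and 0.49 at those ages, where both other scalings ended the calls at 25 and 45 DAP. At 25 DAP 2 of the 8 members were lower and 1 higher, and median-of-ratios scaling gave 6 lower and 0 higher. All genes stood at 18.3% lower and 48.6% higher, and at 30.5% and 35.2% under that scaling. At 45 DAP 6 of the 8 members were lower and 1 higher, beside 22% and 38.5% of all genes, and the higher call held under neither of the other scalings. Among these, the calls of subunit 6 (MELO3C015091.2, -0.17) and subunit 7B (MELO3C017115.2, -0.43) ended without replicate 1 or 3 of either genotype.

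The fumarase member (MELO3C017938.2), whose enzyme turns fumarate into malate, was higher in the mutant at 25 DAP, at 24.0, 41.4 and 21.9 TPM against 12.9, 14.3 and 13.5 TPM in WT libraries. The change was 0.99 (SE 0.19, adjusted p = 0.000127), with 1 mutant library well above the other two. At 15, 35 and 45 DAP the changes of -0.05, -0.01 and 0.21 did not pass the test.

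Malate dehydrogenase, which interconverts oxaloacetate and malate, showed opposite changes among its 9 members. At 25 DAP 6 were higher in the mutant and 2 lower, at 35 DAP 5 and 2, and at 45 DAP 3 and 2, with none called at 15 DAP. Beside these, 48.6%, 41.2% and 38.5% of all genes were higher at 25, 35 and 45 DAP and 18.3%, 23.2% and 22% lower. At 45 DAP both other scalings gave 2 of the 9 members higher and 3 lower. All genes then stood at 32.3% and 30% under median-of-ratios scaling and 26.9% and 33.7% under quantile normalization. The most abundant, MELO3C022998.2, read 1037, 780 and 631 TPM in mutant libraries at 15 DAP, against 524, 582 and 786 TPM in WT libraries, which overlapped. At 25 DAP it read 1030, 1135 and 960.4 TPM in mutant libraries, against 219, 238 and 227 TPM in WT libraries. Every mutant library lay far above every WT library, a change of 2.18 (SE 0.19, adjusted p = 9.42e-09). It stayed higher at 35 DAP, at 530 ± 52.3 TPM in mutant flesh and 151 ± 34.7 TPM in WT flesh (change 1.82, adjusted p = 9.46e-08), and at 45 DAP, at 668 ± 77.1 and 216 ± 36.1 TPM (change 1.63, adjusted p = 4.88e-07).

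Against this, MELO3C012389.2 read 127, 81.5 and 99.7 TPM in mutant libraries at 25 DAP and 444, 371 and 435 TPM in WT libraries. It was lower in the mutant by -2.03 (SE 0.20, adjusted p = 6.25e-08), and by -1.91 at 35 DAP and -1.13 at 45 DAP. MELO3C007674.2 was lower as well, at 102, 95.7 and 106 TPM in mutant libraries at 25 DAP against 317, 280 and 303 TPM in WT libraries (change -1.56, SE 0.12, adjusted p = 2.19e-09), and by -0.69 and -0.73 later. Thus MELO3C022998.2 held 70.6% ± 1.64 of the summed malate dehydrogenase level in mutant flesh at 25 DAP and 21.5% ± 1.94 in WT flesh, while MELO3C012389.2 held 7.01% ± 1.71 and 39.1% ± 1.84. The class total was 1473 ± 91.0 TPM in mutant flesh and 1064 ± 52.4 TPM in WT flesh at that age. At 45 DAP MELO3C022998.2 still held 59.1% ± 3.71 in mutant flesh, against 24.7% ± 2.3 in WT flesh. The descriptions do not place these 3 proteins in a compartment of the cell.

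Of the other malate dehydrogenases, MELO3C016050.2 was higher in the mutant at 25, 35 and 45 DAP by 1.95, 1.21 and 1.39, with means at 25 DAP of 22.1 ± 6.83 TPM in mutant flesh and 4.91 ± 1.26 TPM in WT flesh. MELO3C035566.2 was higher by 0.86, 1.53 and 0.49. The last call was lost in more than 1 alternative. Its limma adjusted p was 0.0532 in the fit to the 45 DAP groups alone (range across alternatives 0.00383 to 0.385). MELO3C016095.2 was higher at 25 and 35 DAP by 0.87 and 0.73. The chloroplastic-like gene MELO3C000258.2 was called at 25 DAP alone (0.74) and under neither of the other scalings. MELO3C005968.2, at under 11 TPM in every library, was higher at 25 DAP (1.71) and 35 DAP (1.22), and MELO3C017175.2 was called at no age.

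**Figure D3:**
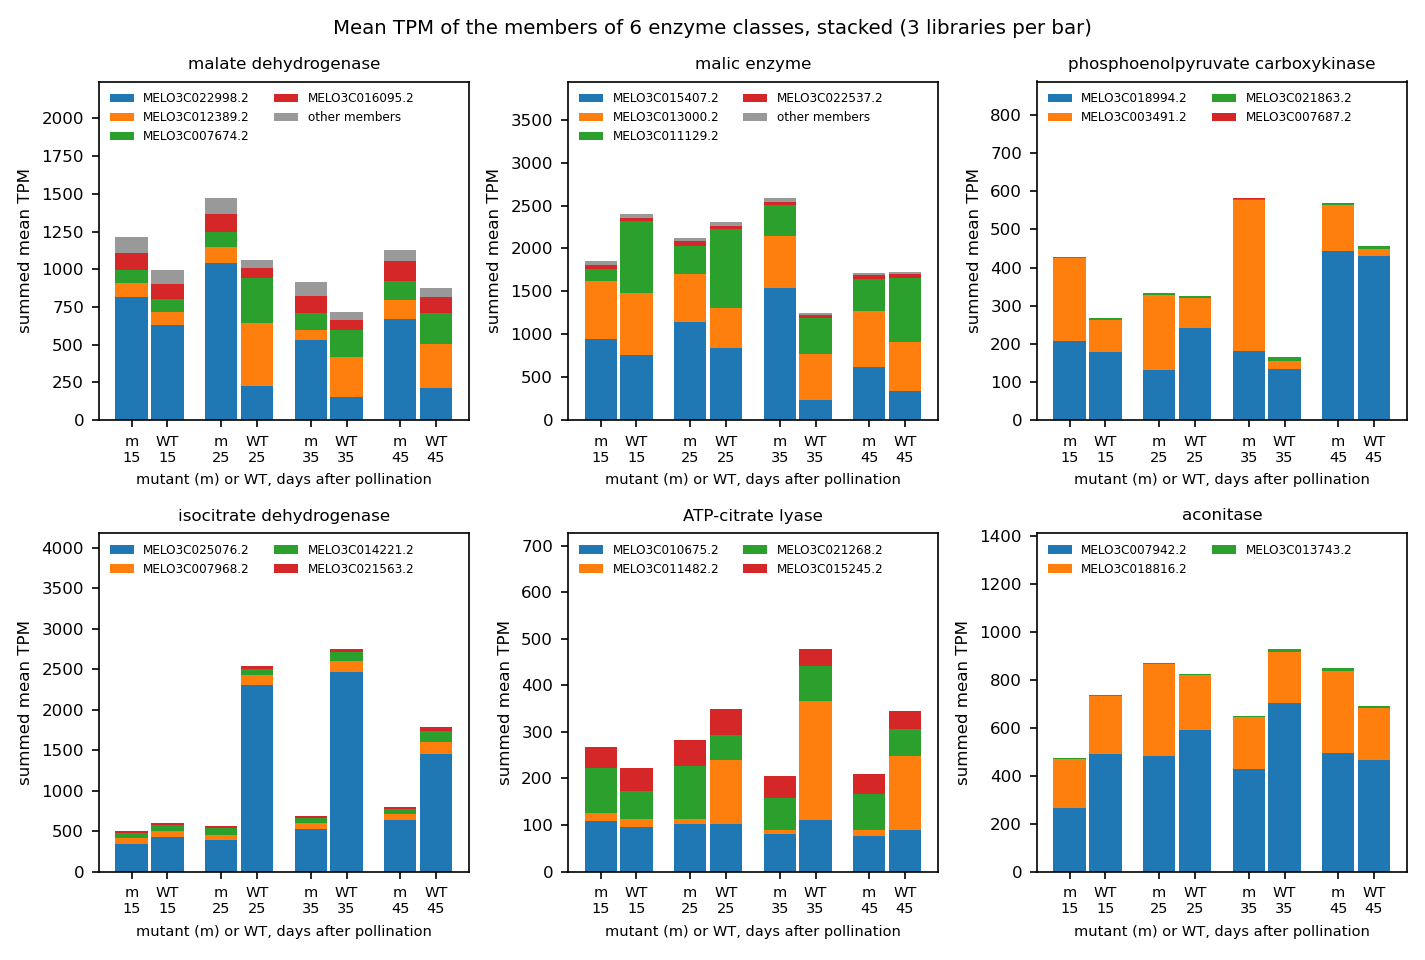
Mean TPM of the members of 6 enzyme classes stacked in 1 bar per group, mutant (m) left of WT at each age in days after pollination. In the malate dehydrogenase panel MELO3C022998.2 fills 70.6% of the mutant bar and 21.5% of the WT bar at 25 DAP, and in the isocitrate dehydrogenase panel MELO3C025076.2 fills most of every bar.

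Malic enzyme, which turns malate into pyruvate and carbon dioxide, had 3 abundant members and 4 at lower levels. The abundant member MELO3C015407.2 read 1791, 1292 and 1526 TPM in mutant libraries at 35 DAP, against 105, 502 and 105 TPM in WT libraries. All mutant libraries were above all WT libraries, and WT replicate 2 stood far above the other two. The change was 3.10 (SE 0.47, adjusted p = 1.06e-05), and 3.85 without WT replicate 2. At 45 DAP it read 578, 648 and 615 TPM in mutant libraries, against 283, 221 and 512 TPM in WT libraries, and the change of 0.95 did not pass the test (adjusted p = 0.088). At 15 and 25 DAP the libraries of the genotypes overlapped, with changes of 0.32 and 0.36.

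The second abundant malic enzyme, MELO3C011129.2, read 151, 80.2 and 211 TPM in mutant libraries at 15 DAP, against 637, 977 and 899 TPM in WT libraries. The groups did not overlap, and the change was -2.58 (SE 0.70, adjusted p = 0.0145). It was 1 of the 2 members whose call at 15 DAP held in the fit to those groups alone (adjusted p = 0.0349; range across alternatives 0.0116 to 0.0874), and it was lost without mutant replicate 2 and with group weights. At 25 DAP it read 183, 207 and 588 TPM in mutant libraries and 815, 1066 and 861 TPM in WT libraries (change -1.69, adjusted p = 0.0397). That call was lost without any 1 library of that age except mutant replicate 3, and under quantile normalization. At 35 DAP mutant libraries spread over 664, 54.6 and 346 TPM, against 324, 642 and 275 TPM in WT libraries, with no call there or at 45 DAP. The third abundant member, MELO3C013000.2, averaged between 557 and 675 TPM in mutant flesh and between 470 and 721 TPM in WT flesh over the ages and was never called. At 25 DAP 3 of the 7 malic enzymes were higher in the mutant and 1 lower, against 1 and 2 under median-of-ratios scaling and 0 and 1 under quantile normalization. The shares of all genes were 48.6% and 18.3%, against 35.2% and 30.5% and then 30.1% and 31.9% under those scalings. At 35 DAP 5 of the 7 were higher and none lower, beside 41.2% and 23.2% of all genes. Among the 5 were MELO3C022537.2 (0.45), MELO3C006261.2 (0.44, lost under median-of-ratios scaling at 0.20) and MELO3C018058.2 (1.46, lost under quantile normalization at 0.70). MELO3C024441.2, at under 6 TPM in every library, was called higher at 25, 35 and 45 DAP, and quantile normalization ended all 3 calls.

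Phosphoenolpyruvate carboxykinase, which forms phosphoenolpyruvate from oxaloacetate at the start of gluconeogenesis, held the largest increase among the called members at 35 DAP. MELO3C003491.2 read 345, 401 and 440.4 TPM in mutant libraries at that age, against 21.7, 30.2 and 18.2 TPM in WT libraries. All mutant libraries lay far above all WT libraries, and the change was 4.05 (SE 0.44, adjusted p = 1.92e-07). At 15 DAP mutant libraries spread over 82.4, 199 and 369 TPM, against 79.7, 100.2 and 71.4 TPM in WT libraries, without a call (change 1.13, adjusted p = 0.0853). At 25 DAP it read 208, 175 and 212 TPM in mutant libraries and 81.4, 84.0 and 73.8 TPM in WT libraries (change 1.30, adjusted p = 0.0144), a call lost under median-of-ratios scaling at 0.85. At 45 DAP it read 77.1, 155 and 128 TPM in mutant libraries, against 37.5, 12.1 and 9.74 TPM in WT libraries (change 2.73, SE 0.44, adjusted p = 2.93e-05). The gene made up 68.3% ± 10 of the summed level of its class in mutant flesh at 35 DAP and 14.1% ± 2.75 in WT flesh.

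The other 3 carboxykinase genes differed among themselves. MELO3C018994.2, the most abundant over all libraries, was lower in the mutant at 25 DAP, at 138, 85.7 and 168 TPM against 283, 209 and 231 TPM in WT libraries (change -0.92, SE 0.29, adjusted p = 0.00956, lost without mutant replicate 2), and was not called at the other ages. At 45 DAP it averaged 444 ± 126 TPM in mutant flesh and 430 ± 97.5 TPM in WT flesh. MELO3C021863.2 was lower at 25 DAP (-0.31, adjusted p = 0.0465, lost without any 1 library of that age except mutant replicate 1), at 35 DAP, at 4.04 ± 0.276 TPM in mutant flesh and 8.07 ± 1.46 TPM in WT flesh (change -0.84), and at 45 DAP (-0.77). MELO3C007687.2 read 1.56, 0.76 and 4.41 TPM in mutant libraries at 35 DAP and was listed at 0 in all WT libraries of that age, of 15 DAP and of 45 DAP. It was called higher at 35 DAP (adjusted p = 7.05e-05) and 45 DAP (adjusted p = 0.00089), but it passed the minimum level only through mutant libraries, so its calls describe these libraries and no fold is given.

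Phosphoenolpyruvate carboxylase, the enzyme that fixes bicarbonate onto phosphoenolpyruvate to make oxaloacetate, showed its differences late. MELO3C005348.2 read 180.2, 128 and 148 TPM in mutant libraries at 35 DAP, against 91.8, 94.6 and 92.5 TPM in WT libraries. It was higher in the mutant by 0.69 (SE 0.16, adjusted p = 0.000805), and by 0.49 at 45 DAP, where median-of-ratios scaling ended the call at 0.27. That call could also be lost when 1 library was left out (limma adjusted p up to 0.0637). MELO3C018724.2 went the other way, at 63.6, 34.9 and 53.6 TPM in mutant libraries at 35 DAP against 103, 115 and 108 TPM in WT libraries. This was a change of -1.13 (SE 0.20, adjusted p = 6.83e-05), and at 45 DAP it was -0.72. MELO3C025636.2 was called at 45 DAP alone (0.60, adjusted p = 0.0369) and under neither of the other scalings. With 1 library left out its limma adjusted p reached 0.188. The kinase that phosphorylates this carboxylase and eases its inhibition by malate had 2 members. MELO3C024646.2 averaged 12.5 ± 3.97 TPM in mutant flesh and 36.0 ± 12 TPM in WT flesh at 15 DAP (change -1.46, adjusted p = 0.000569, and 0.0909 in the fit to that age alone; range across alternatives 8.65e-05 to 0.0909). It was lower at 35 DAP too (-0.86, adjusted p = 0.00625). At 45 DAP it was higher, at 47.9, 46.7 and 36.3 TPM in mutant libraries against 15.7, 17.8 and 26.1 TPM in WT libraries (change 1.12, SE 0.25, adjusted p = 0.000891). The other kinase, MELO3C006426.2, was called at no age.

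Aluminum-activated malate transporters are anion channels, known from Arabidopsis for moving malate across the vacuolar and plasma membranes. Of 14 such genes listed, 11 stayed below the minimum level. A gene described as transporter 12-like, MELO3C014412.2, read 0.17, 0.42 and 0.74 TPM in mutant libraries at 25 DAP, against 85.5, 109 and 71.0 TPM in WT libraries. No mutant library at any age reached 1 TPM, and the change at 25 DAP was -5.95 (SE 0.51, adjusted p = 8.83e-09). At 35 DAP mutant libraries read 0.34, 0.20 and 0.09 TPM, against 47.8, 183 and 28.1 TPM in WT libraries (change -5.73, adjusted p = 1.3e-08), and at 45 DAP 0.05, 0.66 and 0.26 TPM, against 76.9, 109 and 115 TPM (change -6.26, adjusted p = 4.79e-09). At 15 DAP the means were 0.137 ± 0.195 TPM in mutant flesh and 2.69 ± 2.42 TPM in WT flesh, a change of -1.47 that did not pass (adjusted p = 0.053). Arabidopsis ALMT12 is known as a channel of the guard cell plasma membrane. Since this gene passed the minimum level only through WT libraries, its difference is a description of these libraries rather than a sign of the class.

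Transporter 9 (MELO3C017298.2), whose Arabidopsis namesake is a vacuolar channel, had low levels that were higher in the mutant. It read 5.91, 5.45 and 4.74 TPM in mutant libraries at 45 DAP, against 0.59, 0.55 and 1.04 TPM in WT libraries. The groups did not overlap, and the change was 1.89 (SE 0.23, adjusted p = 9.22e-07). At 25 and 35 DAP the changes were 1.34 and 1.59, the first lost under quantile normalization at 0.46. Transporter 4 (MELO3C012230.2) was lower at 45 DAP alone, at 19.6 ± 2.48 TPM in mutant flesh and 30.4 ± 7.6 TPM in WT flesh (change -0.58, adjusted p = 0.0246, lost without replicate 1 or 3 of either genotype).

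**Figure D4:**
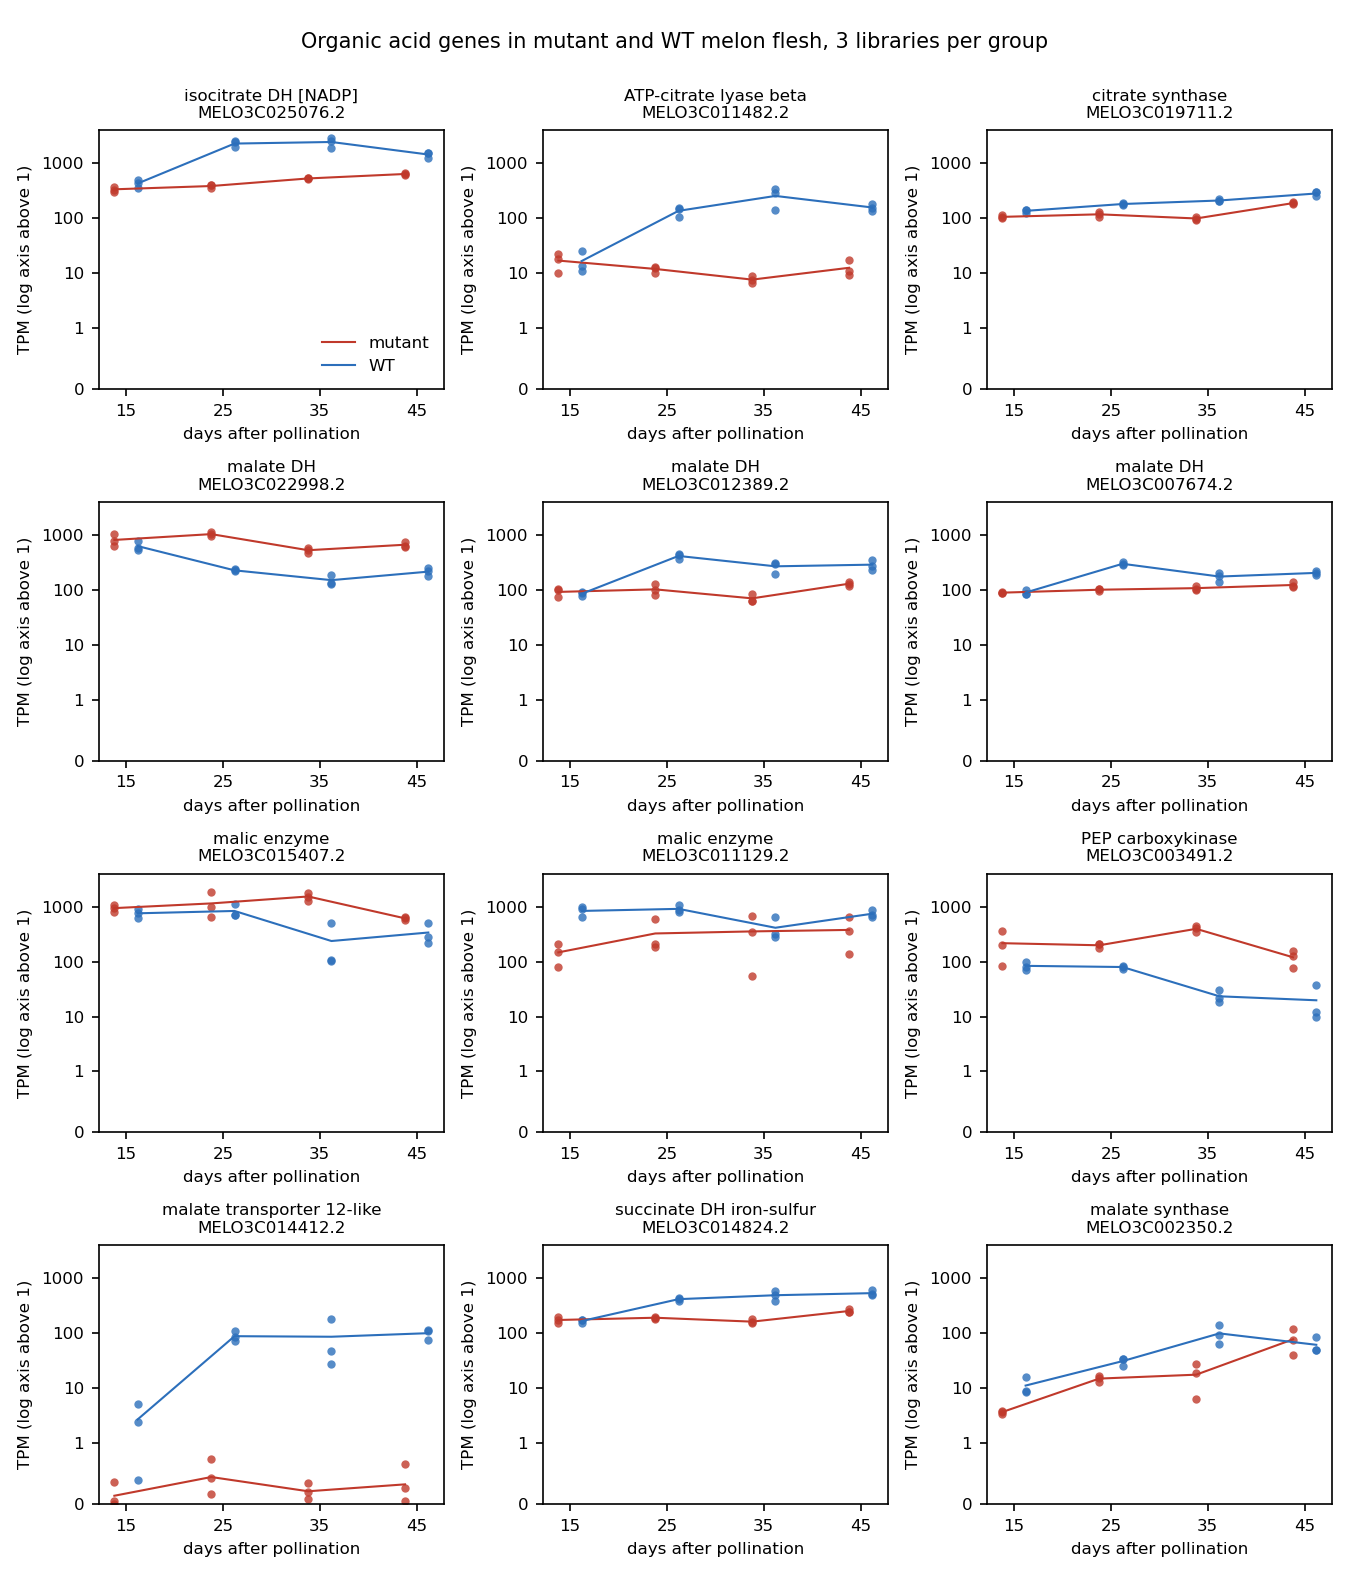
TPM of 12 organic acid genes in each library (points, set slightly left for the mutant and right for WT) with the group means joined by lines, against days after pollination. The vertical axis is logarithmic above 1 TPM and linear below. MELO3C014412.2 stays under 1 TPM in all mutant libraries, and MELO3C003491.2 averages 396 TPM in mutant flesh at 35 DAP and 23.4 TPM in WT flesh.

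The glyoxylate cycle joins isocitrate lyase and malate synthase to make malate from acetyl-CoA. Malate synthase (MELO3C002350.2) read 27.8, 6.23 and 18.8 TPM in mutant libraries at 35 DAP, against 94.6, 64.8 and 139 TPM in WT libraries. It was lower in the mutant by -2.58 (SE 0.43, adjusted p = 3.13e-05). At 45 DAP the groups overlapped, at 40.8, 117 and 74.3 TPM in mutant libraries and 49.1, 48.8 and 86.9 TPM in WT libraries (change 0.26, adjusted p = 0.628). Its calls at 15 DAP (-1.32, adjusted p = 0.0369) and 25 DAP (adjusted p = 0.045) were each lost without 1 library, at 15 DAP without any of the 6 and at 25 DAP without any but WT replicate 2. Isocitrate lyase (MELO3C017685.2) was lower at 25 DAP, at 36.8 ± 1.84 TPM in mutant flesh and 63.2 ± 3.23 TPM in WT flesh (change -0.76, adjusted p = 1.36e-05), and at 45 DAP (-0.40).

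The 7 leucine synthesis genes, which make a branched-chain amino acid and no stored acid, were split as well. The isopropylmalate dehydratase large subunit MELO3C016236.2 read 20.9, 32.3 and 22.8 TPM in mutant libraries at 35 DAP, against 1.63, 2.41 and 2.63 TPM in WT libraries (change 3.02, SE 0.19, adjusted p = 1.56e-10), and was higher by 2.73 at 45 DAP. Its change of 0.88 at 25 DAP was lost under both other scalings. Isopropylmalate synthase MELO3C020296.2 was lower at the 4 ages by -0.73, -1.11, -1.67 and -1.21, with the call at 15 DAP lost without mutant replicate 2, WT replicate 2 or WT replicate 3. Of the isopropylmalate dehydrogenases, MELO3C024817.2 was higher at 25, 35 and 45 DAP by 1.09, 1.09 and 0.72. The other, MELO3C017853.2, was higher at 15, 35 and 45 DAP by 0.68, 0.84 and 0.47, with the call at 15 DAP lost in the fit to that age alone. The dehydratase large subunit MELO3C003344.2 was lower at 25, 35 and 45 DAP by -0.73, -0.68 and -0.64. The small subunit MELO3C005518.2 was called at 25 DAP alone (-0.38, adjusted p = 0.0412), a call lost without any 1 library of that age except mutant replicate 2. The synthase MELO3C022215.2, at under 4 TPM in every library, was called lower at 35 DAP (-0.38) and 45 DAP (-0.37), and each call was lost without 1 of several libraries. Of the 52 members without these genes, 1, 16, 16 and 13 were higher at the 4 ages and 5, 14, 18 and 19 lower. Among all genes tested 10.3%, 48.6%, 41.2% and 38.5% were higher at these ages and 7.99%, 18.3%, 23.2% and 22% lower.

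Between neighbouring ages the members of WT flesh, like all genes tested, were called most often at the earliest step. There 31 of the 59 were called, 17 rising and 14 falling, beside 18.5% of all genes rising and 44.8% falling (63.4% in either direction). In mutant flesh 10 were called at that step, 9 rising and 1 falling, beside 10.9% and 8.12% (19.1% in either direction). Median-of-ratios scaling turned the WT split to 29 rising and 10 falling, beside 29.6% and 34.5% of all genes, and quantile normalization to 22 and 8, beside 31.7% and 28.9%. At the step to 35 DAP 3 members rose and 9 fell in mutant flesh, beside 10.8% and 9.75% of all genes (20.5% in either direction). In WT flesh 9 rose and 14 fell at that step, beside 24.8% and 14.1% (38.9%), against 5 rising and 18 falling under median-of-ratios scaling (17.9% and 20.9% of all genes) and 6 and 16 under quantile normalization (18.7% and 16.6%). At the step to 45 DAP 10 rose and 8 fell in mutant flesh, beside 13.1% and 16.2% (29.2%), and 5 rose and 4 fell in WT flesh, beside 7.2% and 8.77% (16%). The 10 mutant calls at the earliest step came down to 2 in the fit to those groups alone, the 12 at the next to 6, and the 9 WT calls at the last step to 1. Over all genes the same fit called 2.6% rising and 1.39% falling at the earliest mutant step and 8.27% and 7.03% at the next. For the last WT step it called 2.03% of all genes rising and 3.7% falling.

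By 25 DAP ATP-citrate lyase MELO3C011482.2 rose in WT flesh by 3.03 (adjusted p = 2.51e-07), isocitrate dehydrogenase MELO3C025076.2 by 2.42 and malate dehydrogenase MELO3C012389.2 by 2.28. In mutant flesh these genes changed by -0.41, 0.20 and 0.14 at that step and did not pass the test. The transporter 12-like gene MELO3C014412.2 changed by 4.82 in WT flesh, which describes these libraries, since the gene passed the minimum level only through WT libraries. Malate dehydrogenase MELO3C022998.2 changed by -1.44 and carboxylase kinase MELO3C024646.2 by -1.41 in WT flesh in the same interval, both called as falling. At the step to 35 DAP WT levels fell for malic enzyme MELO3C015407.2 (-2.20, adjusted p = 0.000978, and 0.0606 in the fit to those groups alone; range across alternatives 5.82e-06 to 0.0606), carboxykinase MELO3C003491.2 (-1.76) and carboxylase MELO3C005348.2 (-1.26). In mutant flesh malate dehydrogenase MELO3C022998.2 fell at that step by -0.97 (SE 0.19, adjusted p = 0.00143).

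At the last step mutant flesh showed increases of malate synthase MELO3C002350.2 (2.17, adjusted p = 0.000845), carboxylase kinase MELO3C024646.2 (1.61), carboxykinase MELO3C018994.2 (1.32) and citrate synthase MELO3C019711.2 (0.92, SE 0.09, adjusted p = 6.4e-07). It showed decreases of carboxykinase MELO3C003491.2 (-1.76, adjusted p = 0.00561) and malic enzyme MELO3C015407.2 (-1.31, adjusted p = 0.041). The malic enzyme call was lost whichever mutant library of 35 or 45 DAP was left out (limma adjusted p 0.0639 to 0.106). The malate synthase call was lost in the fit to those groups alone (adjusted p = 0.0619; range across alternatives 0.000281 to 0.0619). In WT flesh carboxykinase MELO3C018994.2 rose by 1.66 (SE 0.29, adjusted p = 0.000721) and isocitrate dehydrogenase MELO3C025076.2 fell by -0.75.

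The change between ages itself differed between genotypes, mutant step minus WT step, for 25 members from 15 to 25 DAP, 14 positive and 11 negative, beside 37% and 12.8% of all genes (49.8% in either direction). From 25 to 35 DAP it differed for 11 members in each direction, beside 13.2% and 20.9% (34.1%), and from 35 to 45 DAP for 8 positive and 6 negative, beside 11.9% and 13.2% (25.1%). For isocitrate dehydrogenase MELO3C025076.2 the difference at the earliest of these steps was -2.22 (SE 0.21, adjusted p = 2.01e-07), and for malate dehydrogenase MELO3C022998.2 it was 1.82 (SE 0.27, adjusted p = 2.13e-05).

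Genes around these enzymes were counted from lists of description words. All genes tested serve as the comparison for each list below. Of them 48.6%, 41.2% and 38.5% were higher and 18.3%, 23.2% and 22% lower in the mutant at 25, 35 and 45 DAP. Their shares under the other scalings are given above. Of 19 genes of the pyruvate dehydrogenase complex, which supplies acetyl-CoA, its kinases and dihydrolipoyl dehydrogenase, 5, 3 and 3 were higher and 11, 13 and 11 lower in the mutant at 25, 35 and 45 DAP. The median changes of this list were -0.53, -0.78 and -0.66, beside 0.44, 0.27 and 0.22 over all genes. Its E1 alpha subunit MELO3C008063.2 averaged 26.5 ± 1.85 TPM in mutant flesh and 425 ± 61.1 TPM in WT flesh at 25 DAP (change -3.94, SE 0.22, adjusted p = 3.7e-11), already apart at 15 DAP (13.5 ± 1.15 and 47.3 ± 12.7 TPM, change -1.71). Of the pyruvate dehydrogenase kinases, which switch the complex off, MELO3C003205.2 was lower by -4.34 and MELO3C006749.2 higher by 3.32 at 25 DAP. Of 5 genes for 2-oxoglutarate dehydrogenase and succinyl-CoA ligase, the enzymes between isocitrate dehydrogenase and succinate dehydrogenase, 4, 3 and 1 were higher and none lower at these ages, with median changes of 0.77, 0.36 and 0.29. Under median-of-ratios scaling 4, 1 and 1 were higher and 0, 1 and 1 lower. The ligase beta subunit MELO3C022382.2 averaged 103 ± 14 TPM in mutant flesh and 59.5 ± 3.3 TPM in WT flesh at 25 DAP (change 0.77).

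Pyruvate kinase, which draws on the same phosphoenolpyruvate as the carboxylase, had 17 genes tested, of which 6, 2 and 2 were higher and 6, 5 and 6 lower (medians -0.01, -0.17 and -0.32). Quantile normalization gave 2 higher and 9 lower at 25 DAP. MELO3C003381.2 averaged 70.4 ± 9.67 TPM in mutant flesh and 403 ± 41.5 TPM in WT flesh at 25 DAP (change -2.50, SE 0.23, adjusted p = 1.92e-08). Of 21 genes for vacuolar proton pumps, which drive acid storage, 7, 4 and 0 were higher and 5, 9 and 10 lower (medians 0.06, -0.17 and -0.24). At 25 DAP the split for these pumps turned to 0 higher and 14 lower under median-of-ratios scaling and to 4 and 9 under quantile normalization. All 5 genes tested for plasma membrane or other P-type proton pumps were higher at 35 DAP (4 under median-of-ratios scaling) and 45 DAP, and 3 at 25 DAP, with medians of 1.88, 2.59 and 2.41 at 25, 35 and 45 DAP. Their member MELO3C002213.2 averaged 46.2 ± 4.62 TPM in mutant flesh and 2.75 ± 1.2 TPM in WT flesh at 25 DAP (change 3.70). Phloem sums were higher in the mutant at these ages too, as given above, and their part in this was not tested.

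Aspartate aminotransferase, which links oxaloacetate to aspartate, had 8 genes tested, with 4, 3 and 3 higher and 1, 2 and 2 lower (medians 0.69, 0.33 and 0.33). MELO3C017998.2 was lower by -1.54 and MELO3C026051.2 higher by 2.04 at 25 DAP. Of 4 dicarboxylate and tricarboxylate carriers, 1, 1 and 1 were higher and 2, 1 and 0 lower (medians 0.47, 0.06 and 0.18), against 0 higher and 2, 1 and 2 lower under quantile normalization. A list for the GABA shunt and glutamate entry into the cycle had 45 genes tested, with 24, 25 and 25 higher and 2, 3 and 5 lower (medians 0.79, 0.77 and 0.70). Beside these, 48.6%, 41.2% and 38.5% of all genes were higher and 18.3%, 23.2% and 22% lower. Quantile normalization gave 8, 7 and 11 of the list higher and 6, 7 and 10 lower. Under it 30.1%, 30.2% and 26.9% of all genes were higher and 31.9%, 34% and 33.7% lower. Of these 45, 35 were described as low quality transaminase entries, and without them, a choice made after the descriptions were seen, 10 genes remained, with 5, 5 and 5 higher and 2, 1 and 1 lower. Glutamate dehydrogenase MELO3C008802.2, which exchanges glutamate and 2-oxoglutarate, averaged 48.4 ± 13.2, 85.1 ± 24.9 and 55.8 ± 11.4 TPM in mutant flesh, against 4.32 ± 0.449, 0.373 ± 0.284 and 0.48 ± 0.212 TPM in WT flesh, with changes of 3.18, 5.95 and 5.25 (SE 0.21 each).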

How the data were processed

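Gene expression was measured by RNA sequencing in 24 libraries. TopHat2, HISAT2, StringTie and Cufflinks are listed in the submitters' processing notes. Their roles, the genome build and the annotation behind the table were not given in the sources used here. The deposited values were read as TPM made by the authors, because they sum to between 927159 and 963192 per library. The unit itself is not named by a header or label. How reads of near-identical genes were shared out is not given, so members that share a description are uncertain where they are close copies.

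Genes at 1 TPM or above in at least 3 libraries were tested with limma-trend (limma 3.58.1, R 4.3.3) on log2(TPM + 1), which understates changes of low genes. All 24 libraries entered 1 model of 8 group means, two-sided, with Benjamini-Hochberg adjustment over 17658 genes. The test was tried on simulated data. Genotypes were compared at each age (mutant minus WT), ages within each genotype (later minus earlier), and the steps between genotypes (mutant step minus WT step).

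Named were the most abundant member of each class and, per age and direction, up to 10 called members without overlap whose higher group averaged at least 10 TPM. For steps and their differences up to 4 per direction were named, and for neighbouring lists up to 3 genes by smallest adjusted p at 25 DAP. Other members were named after their values were seen, to account for each class. The members and lists were chosen with earlier results of these data known, and the leucine synthesis class was set apart after the descriptions were seen. Alternatives were a pseudocount of 0.1, no minimum or 5 TPM, median-of-ratios scaling, quantile normalization, own groups only, group weights, a replicate block and leaving out each library. Of the gene identifiers, 0 matched a reference table of another assembly (USDA_Cmelo_AY_1.0), so no coordinates or sequences are given.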

Additional observations from a re-analysis of the deposited data

Results flagged for a closer look

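The results in this part were picked out because the step between 2 ages differed between genotypes by the limma test of the difference itself. Values are differences of log2(TPM + 1) steps, mutant step minus WT step. From 15 to 25 DAP 25 members passed this test, beside 49.8% of all genes, with 14 positive and 11 negative. Median-of-ratios scaling gave 5 positive and 21 negative there, beside 24.7% and 23.6% of all genes, and quantile normalization 6 and 16, beside 20.7% and 24.2%, where the deposited values had 37% and 12.8%. From 25 to 35 DAP 22 passed (34.1% of all genes), 11 in each direction, beside 13.2% and 20.9%, and 13 and 5 under median-of-ratios scaling, beside 18.2% and 16.2%. From 35 to 45 DAP 14 passed (25.1%), 8 positive and 6 negative.

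From 15 to 25 DAP the positive differences named by the rule were malate dehydrogenases MELO3C022998.2 (1.82, SE 0.27, adjusted p = 2.13e-05) and MELO3C016050.2 (1.48), isopropylmalate dehydrogenase MELO3C024817.2 (1.13) and fumarase MELO3C017938.2 (1.05). The negative ones were ATP-citrate lyase MELO3C011482.2 (-3.44), isocitrate dehydrogenase MELO3C025076.2 (-2.22, SE 0.21, adjusted p = 2.01e-07) and malate dehydrogenase MELO3C012389.2 (-2.13). Malate transporter MELO3C014412.2 had a value of -4.48, which only describes these libraries, since the gene passed the minimum level through WT libraries alone.

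From 25 to 35 DAP the positive differences were phosphoenolpyruvate carboxykinase MELO3C003491.2 (2.75, SE 0.62, adjusted p = 0.00259), malic enzyme MELO3C015407.2 (2.74), isopropylmalate dehydratase MELO3C016236.2 (2.14) and carboxykinase MELO3C018994.2 (1.29, adjusted p = 0.0219). The negative ones were ATP-citrate lyase genes MELO3C011482.2 (-1.41, adjusted p = 0.0257) and MELO3C021268.2 (-1.16), aconitase MELO3C013743.2 (-1.37) and fumarase MELO3C017938.2 (-1.01). The call of MELO3C011482.2 was lost under median-of-ratios scaling (-1.21) and without 1 of 5 libraries, and that of MELO3C018994.2 without 1 of 3 libraries.

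From 35 to 45 DAP the positive differences were malate synthase MELO3C002350.2 (2.83, SE 0.60, adjusted p = 0.00202), phosphoenolpyruvate carboxylase kinase MELO3C024646.2 (1.98), aconitase MELO3C013743.2 (1.41) and carboxylase MELO3C025636.2 (1.06). The negative ones were malic enzyme MELO3C015407.2 (-2.15, adjusted p = 0.0221), malate dehydrogenase MELO3C035566.2 (-1.03), succinate dehydrogenase subunit 5 MELO3C010886.2 (-0.57) and isocitrate lyase MELO3C017685.2 (-0.56). In the fit to the 4 groups alone MELO3C015407.2 had an adjusted p of 0.0624 (range across alternatives 0.000195 to 0.0694) and MELO3C025636.2 one of 0.0738 (range 0.00571 to 0.0783).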

How the results depend on the processing

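Of 35, 40 and 38 members called between genotypes at 25, 35 and 45 DAP, 20, 33 and 28 were called under every alternative, and of the 8 at 15 DAP, 0 were. A matching share of calls kept over all genes is not given. At 15 DAP own groups only called 1.66% of all genes higher and 2.28% lower, where the model of all libraries called 10.3% and 7.99%. Over the members named by the rule, each compared under each alternative, 2377 results stayed on their side of the threshold, 142 lost their call, 19 gained one and 0 called results changed sign. The 3 malic enzymes that changed sign at 25 DAP are not among those named by the rule.

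At 15 DAP the 2 higher members became 0 with own groups only and 1 with group weights, and the 6 lower became 2 under each. Leaving out 1 library gave 2 to 7 lower members at 15 DAP, with 2 without mutant replicate 2 and 3 without WT replicate 3. At 25 DAP the 18 higher members became 10 under median-of-ratios scaling and 10 under quantile normalization, and the 17 lower became 31 under median-of-ratios scaling. For the mutant step from 15 to 25 DAP the 10 called became 2 with own groups only, 6 with group weights and 5 to 13 with 1 library left out, with 5 without mutant 15 DAP replicate 2, 6 without its replicate 3 and 6 without mutant 25 DAP replicate 2. For the mutant step from 25 to 35 DAP the 12 became 6 with own groups only and 7 to 10 with 1 library left out (7 without mutant 35 DAP replicate 3). For the WT step from 35 to 45 DAP the 9 became 1 with own groups only and 3 to 13 with 1 library left out, with 3 without WT 35 DAP replicate 3 and 5 without WT 35 DAP replicate 1, WT 45 DAP replicate 1 or WT 45 DAP replicate 3. The shares of all genes called at these steps with own groups only are given above. The 14 step differences from 35 to 45 DAP became 9 to 15 with 1 library left out (9 without WT 35 DAP replicate 1). With own groups only or 1 library left out, the spread is estimated from fewer libraries. Group weights ran from 0.483 for mutant flesh at 15 DAP to 1.98 for WT flesh at 25 DAP. The cause of these shifts was not tested for any alternative.

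The correlations of the deviations of same-numbered libraries from their group means ran between -0.31 and 0.31. With 3 libraries per group these values cannot settle whether the numbers pair samples, and the labels do not say. With a replicate block the genotype calls lost at the 4 ages numbered 0, 2, 0 and 1, and 1 named member result gained a call. The missing read depth leaves the precision of low values unknown.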
